A study of Mus musculus with 4 samples.

Results

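The replication-dependent histone gene clusters are represented by 26 accessible regions, of 35019 regions measured by ATAC-seq in satellite cells, the resident stem cells of skeletal muscle. They are the rows whose deposited gene name starts with Hist1h, Hist2h, Hist3h or Hist4. Of these, 24 belong to Hist1 on chromosome 13 and 2 to Hist2 on chromosome 3, and 0 carry a Hist3 or Hist4 name. ATAC-seq reads mark DNA that the Tn5 transposase can reach. Quiescent satellite cells were sorted by flow cytometry from mdx mice, which carry a mutation in the dystrophin gene and model Duchenne muscular dystrophy, and from wild type mice, with 2 libraries in each group. The labels give no age, sex, strain, muscle or treatment. The design text speaks of 3 mice for each genotype but does not tie the libraries to animals, so the p-values reflect only how far these 4 libraries spread, and that spread may be technical. Each group is bulk, so fewer cells with an open region and less access per cell cannot be told apart.

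Replication-dependent histone genes encode the linker histone H1 and the core histones H2A, H2B, H3 and H4, which package newly made DNA during S phase. They are compact genes, present in many copies, and most of their messages end in a stem-loop instead of a poly(A) tail. Their transcription is gathered in a nuclear structure called the histone locus body and is driven by NPAT, a target of cyclin E and its kinase. In cells outside S phase these messages are kept low, so the clusters are of interest in a quiescent stem cell.

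The deposited names needed to be read by position. The 26 rows carry 16 names but 25 gene identifiers, and in 12 rows the name is that of another histone gene than the one RefSeq (GRCm38.p6) places there. The name Hist1h4a alone covers 6 rows and 5 identifiers. The histone type was the same by name and by position in all 26 rows. Genes are called below by the older RefSeq synonym of the gene at the linked position, and coordinates are mm10 as the file gives them.

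The promoter sequences below are shown because they belong to the 3 regions with the largest positive fold changes (Hist1h2ae, Hist1h2ad and Hist1h1c), the region with the highest mean value (Hist1h2bp), the H4 region with the most reads (Hist1h4a) and, for comparison with Hist1h1c, the H1 region with the most reads (Hist1h1e). Each runs 5′ to 3′ up to the base before the gene's start (RefSeq, GRCm38.p6). It covers 250 bases, or fewer where the start of a divergent partner gene lies closer. Capitals mark exact matches, on either strand, to the octamer (ATTTGCAT), the TATA box (TATAAA), the CCAAT box (CCAAT) and the AC box of H1 promoters (AAACACAA).
Hist1h2ae, chr13:23571221-23571399, minus strand: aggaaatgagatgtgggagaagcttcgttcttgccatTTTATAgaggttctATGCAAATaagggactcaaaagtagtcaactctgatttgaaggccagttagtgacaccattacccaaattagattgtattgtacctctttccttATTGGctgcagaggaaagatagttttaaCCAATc
Hist1h2ad, chr13:23574208-23574380, plus strand: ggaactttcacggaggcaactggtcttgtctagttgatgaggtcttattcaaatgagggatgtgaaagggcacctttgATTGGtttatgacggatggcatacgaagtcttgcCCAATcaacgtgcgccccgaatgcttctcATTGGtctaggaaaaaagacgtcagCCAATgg
Hist1h2bp, chr13:21787249-21787487, plus strand: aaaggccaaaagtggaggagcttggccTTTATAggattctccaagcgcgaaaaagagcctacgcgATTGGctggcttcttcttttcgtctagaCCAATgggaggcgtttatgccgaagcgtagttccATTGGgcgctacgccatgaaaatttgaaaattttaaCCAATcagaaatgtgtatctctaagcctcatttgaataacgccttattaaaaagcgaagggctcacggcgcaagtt
Hist1h4a, chr13:23761250-23761499, minus strand: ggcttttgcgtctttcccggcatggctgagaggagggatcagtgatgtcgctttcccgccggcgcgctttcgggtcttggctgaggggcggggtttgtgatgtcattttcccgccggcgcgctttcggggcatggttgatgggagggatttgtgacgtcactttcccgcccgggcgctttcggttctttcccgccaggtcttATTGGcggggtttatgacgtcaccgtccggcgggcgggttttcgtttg
Hist1h1c, chr13:23738557-23738806, plus strand: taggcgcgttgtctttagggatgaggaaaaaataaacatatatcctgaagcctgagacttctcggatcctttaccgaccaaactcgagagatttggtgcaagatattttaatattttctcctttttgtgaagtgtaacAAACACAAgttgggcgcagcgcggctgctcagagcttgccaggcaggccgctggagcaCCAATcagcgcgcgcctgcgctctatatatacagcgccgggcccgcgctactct
Hist1h1e, chr13:23622559-23622808, minus strand: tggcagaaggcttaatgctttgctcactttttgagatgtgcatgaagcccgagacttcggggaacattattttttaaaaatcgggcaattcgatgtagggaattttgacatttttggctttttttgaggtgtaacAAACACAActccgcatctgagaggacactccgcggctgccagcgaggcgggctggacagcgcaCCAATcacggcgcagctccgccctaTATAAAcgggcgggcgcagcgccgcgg
The Hist1h2ae sequence is the whole 179 bases between the starts of Hist1h2ae and its divergent H2B partner Hist1h2bg, and the Hist1h2ad sequence the 173 bases between Hist1h2ad and Hist1h2bf. The first holds 1 octamer match and the second 0. Both H1 promoters hold the AC box and a CCAAT box, and the TATAAA match is in Hist1h1e and not in Hist1h1c. In Hist1h4a the only match to these 4 motifs is 1 CCAAT box on the other strand.

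H2A and H2B promoters were most often inside an accessible region, and H3 promoters least often. RefSeq lists 70 genes with a Hist1, Hist2, Hist3 or Hist4 synonym, and 62 of them have promoter windows of 300 bases in the table used here, 63 windows in all. The gene's start lay inside a listed region in 29 of the 63 windows (46.0%), against 43.0% of 21263 windows of protein-coding genes. By type the count was 11 of 18 for H2A, 10 of 17 for H2B, 3 of 6 for H1, 4 of 12 for H4 and 1 of 10 for H3. Of the 10 divergent H2A-H2B pairs in these windows, whose starts lie 164 to 281 bases apart, 6 had both starts inside a region and 4 had neither. Another 3 starts that have no window (Hist1h3a, Hist1h2bc and Hist2h2be) lie inside a region by the deposited gene position.

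**Figure D1:**
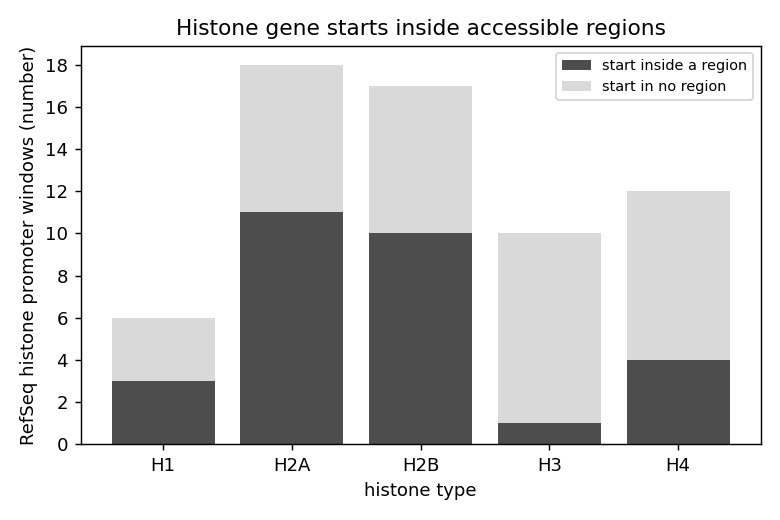
Number of RefSeq histone promoter windows (vertical axis) by histone type (horizontal axis), split by whether the gene's start lies inside a listed region. H2A has 11 of 18 and H2B 10 of 17 starts in a region, and H3 has 1 of 10.

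Some histone promoters are near copies of each other, so reads from them may not map to 1 place, and how such reads were handled is not given in the sources used here. Words of 50 bases that recur, on either strand, in another promoter window that does not overlap were found in 12 of the 63 histone windows. Of these 12, 11 belong to starts in no region, among them Hist1h2bq and Hist1h2br, in which 100% of the words recur, and Hist1h4m and Hist1h4n, with 94.0%. The remaining one, Hist1h4k, has 11.6% of its words in another window. The part of shared sequence in which starts lie in a region was not tested.

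The 4 motifs differed in how many histone windows held them and in which types. The octamer, which POU factors bind, was in 14 of 63 windows (22.2%) against 1.7% of all 32851 promoter windows, and it was in 7 of 18 H2A and 7 of 17 H2B windows and in 0 of the others. The CCAAT box, bound by NF-Y, was in 85.7% against 37.4%. It was in every H1, H2A, H2B and H3 window and in 3 of 12 H4 windows. The TATA box was in 55.6% against 13.6%, and the AC box in 6 of 63 windows (4 of the 6 H1 windows, 1 H2A and 1 H2B) against 1.9%. Among histone windows, the octamer was in 37.9% of those with their start in a region and in 8.8% of the others, and the TATA box in 69.0% and 44.1%. H2A and H2B, the only types with an octamer, were also the types most often in a region. These pooled shares therefore do not tell octamer and type apart. Divergent partners share most of their bases, so these windows are not independent, and the differences are given as a description. The letters of a motif in a window do not show that a factor was bound.

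**Figure D2:**
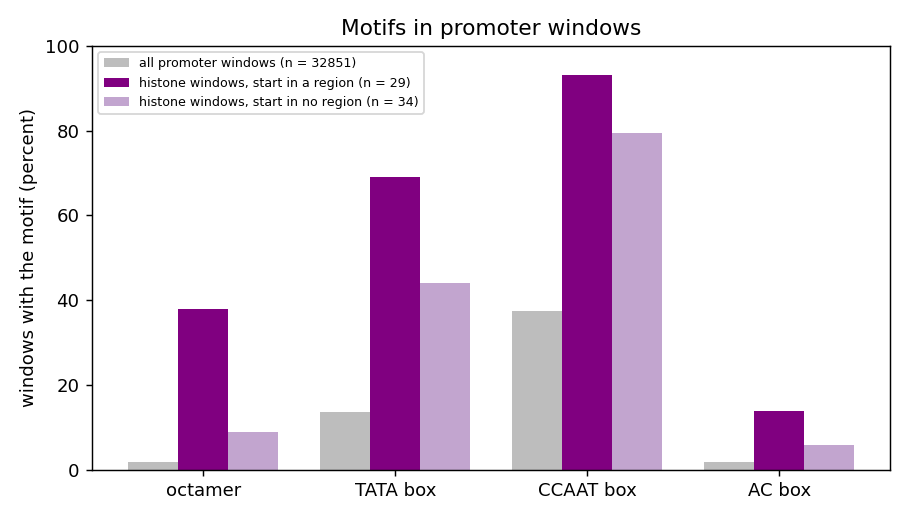
Share of promoter windows of 300 bases holding each motif (vertical axis, percent), for all windows in grey and for histone windows with the start inside or outside a region in purple. The octamer is in 37.9% of histone windows with the start in a region, in 8.8% of the others and in 1.7% of all windows. All histone windows with an octamer are of H2A or H2B, the types most often in a region.

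Of the 26 regions, 8 hold the starts of 2 histone genes, 13 hold 1 and 5 hold none. Those with 2 starts are all H2A-H2B promoters. The 5 without a start are linked to Hist1h4j, Hist1h1b, Hist1h1d, Hist1h3e and Hist1h2be. The last of these overlaps the gene body of Hist1h1e, and the other 4 overlap no histone gene body. The second region linked to Hist1h4d lies 4295 bp from that gene's start and holds a RefSeq start of Hist1h2be, an H2B gene. The region deposited for Hist1h2be lies elsewhere, 35516 bp further along and 604 bp from the start that the deposited table gives for this gene. RefSeq also has a window for Hist1h2be near there, at chr13:23621045-23621344, and the start of that window lies in no region.

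Accessibility is given in scaled reads, the deposited whole numbers, which are read numbers times a factor set for each library. In each pair of values below, replicate 1 comes first. Recovered reads in the listed regions numbered 3208479 and 3607633 in mdx and 3693096 and 8165050 in wild type. A histone region held a median of 66, 57, 56 and 175 reads in these 4 libraries in the same order. Counting error is then smallest in wild type replicate 2, if its recovered factor, the least certain of the 4, is right. Per kilobase of region, the median level over the 26 histone regions was 216.2 scaled reads, against 219.0 over 11292 tested promoter regions. Of the satellite cell markers checked, Pax7, Myf5, Myod1, Calcr, Chodl, Spry1 and Heyl have a tested promoter, and 0 of these 7 passed, with summed levels of 1313 and 1332 scaled reads in mdx, against 1567 and 1462 in wild type. With scaling by column totals 1 of the 7 passed, and with distal medians set equal 2 passed. Over all 33161 tested regions these scalings called 1310 higher and 510 lower, and 1222 higher and 3465 lower. Both mdx libraries were lower in 3 of the 7 and higher in 0, against 43.5% and 10.4% of tested promoter regions. Cdh15, Vcam1 and Itga7 have no linked promoter region. Of 8 markers of fibro-adipogenic progenitors, stromal cells of muscle, 5 have one (not Pdgfra, Ly6a or Lum), with 0 passed (2 with promoter medians set equal) and sums of 343 and 350 in mdx against 185 and 221 in wild type. Both mdx libraries were higher in 4 of these 5, against 10.4% of tested promoter regions. Setting promoter medians equal called 1821 of 33161 tested regions higher and 159 lower. With distal medians set equal, 2 of these 5 had a fold change below 0. Tek was the endothelial marker with a promoter region (131 to 152), Myh1 that of myofibres (87 and 110 in mdx, 44 and 73 in wild type), and none of 5 immune markers had one. The part of such cells in the results below was not tested.

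The linker histone genes, which encode the H1 proteins that bind DNA between nucleosomes, gave 5 regions. Hist1h1e held 117 and 119 scaled reads in mdx, against 126 and 119 in wild type, the tightest set of 4 values among the H1 regions. Hist1h1a held 75 and 66 in mdx and 105 and 87 in wild type, and both mdx libraries were below both wild type ones. Hist1h1c held 48 and 56 in mdx, but 15 and 50 in wild type. Only wild type replicate 1 stood apart there, with 12 recovered reads, and the groups overlapped. The region 2959 bp from the start of Hist1h1d showed the same library low, at 26, with 70 in wild type replicate 2 and 64 and 42 in mdx. The region 1100 bp from the start of Hist1h1b held 86 to 120 in the 4 libraries.

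The highest level per length was at a divergent H2A-H2B promoter, from which one gene of each kind is read in opposite directions. The 8 regions with 2 starts had a median of 257.6 scaled reads per kilobase, against 192.8 for the 13 with 1 start. The region between Hist1h2an and Hist1h2bp, at chr13:21786992-21787794, held 333 and 329 scaled reads in mdx, against 365 and 398 in wild type. Its 444.2 scaled reads per kilobase were the most of the 26. The region between Hist1h2ac and Hist1h2bc held 362 and 268 in mdx and 384 and 335 in wild type, and its groups overlapped. These 2 regions and Hist1h4a had the highest mean values of the clusters.

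A neighbouring pair of H2A-H2B promoters, 2582 bp apart, stood higher in mdx. The region between Hist1h2ae and Hist1h2bg, at chr13:23571046-23571543, held 137 and 146 scaled reads in mdx, against 70 and 85 in wild type. The groups did not overlap, and replicates of each group lay close together. The region between Hist1h2ad and Hist1h2bf, at chr13:23574125-23574535, held 140 and 108 in mdx and 48 and 106 in wild type. The groups did not overlap here either, but wild type replicate 2 came within 2 scaled reads of mdx replicate 2, and wild type replicate 1 alone lay far below.

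Among the other H2A and H2B regions, Hist1h2bb held 200 and 224 in mdx and 149 and 193 in wild type, again higher in mdx with no overlap. The 2 pairs at the middle block of Hist1, which face Hist1h2bk and Hist1h2ag, held 108 to 144 in the 4 libraries. Hist1h2bl held 126 and 73 in mdx and 70 and 95 in wild type. Hist1h2ab was the faintest region of all, at 6 and 12 in mdx and 9 and 19 in wild type, with 4 recovered reads in mdx replicate 1. The region linked to Hist1h2be held 28 to 40.

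Hist2 had lower levels than most of Hist1, with 108.3 and 119.8 scaled reads per kilobase at its 2 regions, against a median of 232.7 over the 24 regions of Hist1. Hist2h2ab held 14 and 19 scaled reads in mdx, against 34 and 27 in wild type. Both mdx libraries were below both wild type libraries, at low depth, with 10 and 16 recovered reads in mdx. The divergent region of Hist2h2ac and Hist2h2be held 58 and 67 in mdx and 68 and 62 in wild type, and its groups overlapped.

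Genes for H3, the core histone whose tail carries many of the marks read by Polycomb and Trithorax proteins, gave 3 regions. Hist1h3a held 75 and 52 in mdx and 78 and 53 in wild type, so each group spanned nearly the same range. Hist1h3i held 29 and 36 in mdx and 43 and 47 in wild type, lower in mdx with no overlap. The region 1019 bp from the start of Hist1h3e held 30 to 41.

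H4, the core histone that pairs with H3, had 6 regions by the linked gene. Hist1h4a, at chr13:23761029-23761691, held 229 and 239 scaled reads in mdx, against 354 and 318 in wild type. The 2 groups were well apart, and at 430.5 scaled reads per kilobase it was second in level to the Hist1h2bp region. Hist1h4d held 57 and 42 in mdx and 72 and 55 in wild type, while the region 4295 bp away held 116 and 88 in mdx and 66 and 97 in wild type. Hist1h4j held 108 and 65 in mdx and 56 and 90 in wild type. Hist1h4f and Hist1h4k were faint, at 12 to 23 in the 4 libraries.

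**Figure D3:**
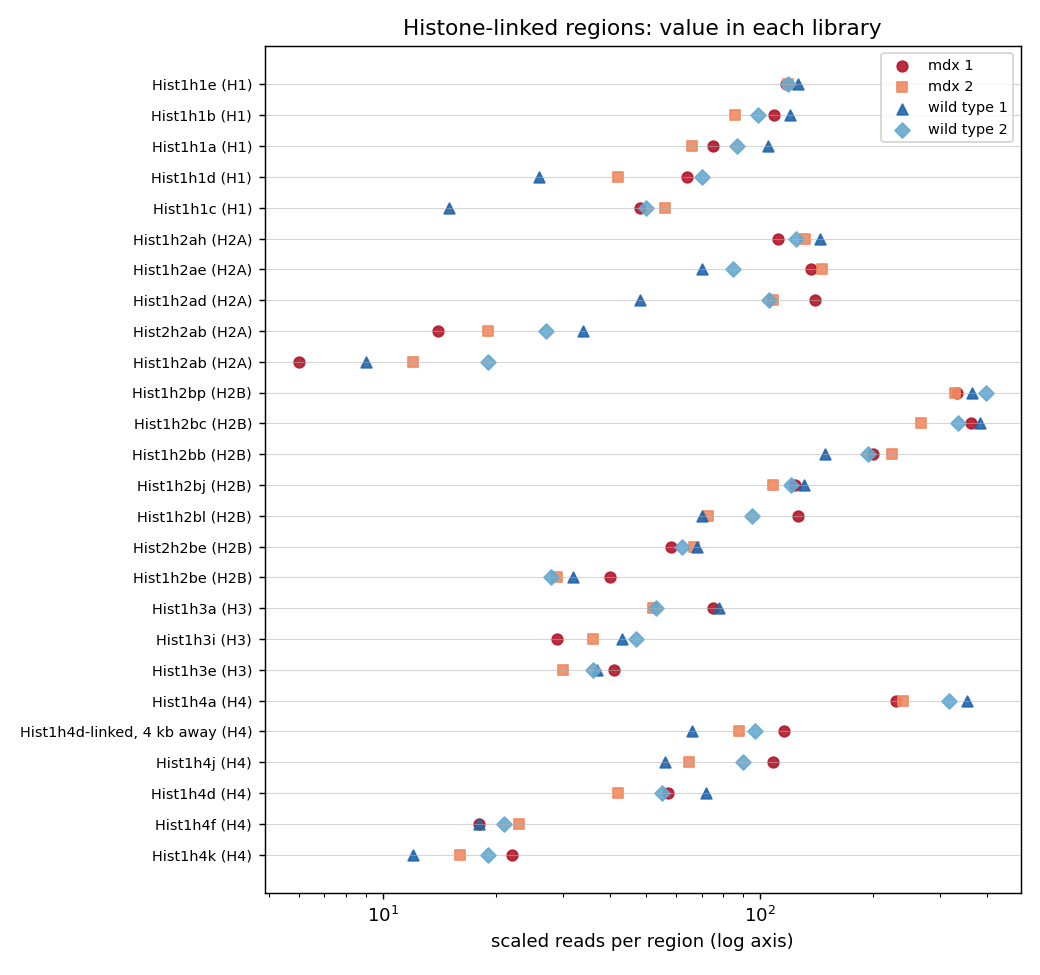
Scaled reads (horizontal log axis) in each of the 26 histone regions (vertical axis, grouped by histone type), with 1 point per library. Hist1h2ae shows both mdx libraries (137 and 146) above both wild type libraries (70 and 85), and Hist1h4a shows them below (229 and 239 against 354 and 318).

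Between mdx and wild type, no histone region passed the test. All 26 had values high enough to be tested, and 0 rose and 0 fell at an adjusted p under 0.05 (limma, Benjamini-Hochberg over 33161 regions). Over all tested regions, 4.18% passed, with 3.3% higher and 0.881% lower in mdx, and over tested promoter regions 2.42%, with 0.691% higher and 1.73% lower. The balance over all regions depended on the scaling, from 1095 higher and 292 lower as deposited to 1821 and 159 with promoter medians set equal and to 1222 and 3465 with distal medians set equal. At an unadjusted p under 0.05 there were 3, Hist1h2ae, Hist1h2ad and Hist1h4a, against 23% of all tested regions and 21% of promoter regions, and limma voom on recovered reads also passed 0. Fold changes are of mdx relative to wild type, from log2 of the value plus 1, and their median was -0.05, against -0.01 for all tested regions and -0.25 for tested promoter regions. It became 0.14 with promoter medians set equal, a scaling that moved the median of all regions to 0.19, and -0.39 with distal medians set equal, which moved it to -0.35. Of the 26, 11 had a fold change above 0 and 15 below.

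The groups did not overlap in 8 of the 26 regions and overlapped in 18. Both mdx libraries were higher in 3 histone regions (11.5%), against 26.8% of all tested regions and 10.4% of promoter regions. They were lower in 5 (19.2%), against 25.9% and 43.5%. The 3 higher ones were Hist1h2ae, Hist1h2ad and Hist1h2bb, and the 5 lower ones Hist1h4a, Hist1h1a, Hist1h3i, Hist1h2bp and Hist2h2ab. The median absolute log2 difference between the libraries of a group was 0.35 in mdx and 0.28 in wild type over the histone regions, and 0.28 and 0.26 over tested promoter regions.

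The largest positive fold changes were at Hist1h1c, Hist1h2ae and Hist1h2ad. Hist1h2ae was 1.82-fold higher in mdx (141.5 ± 6.4 against 77.5 ± 10.6, SD, n = 2), or 0.87 ± 0.26 (SE) on the log2 scale, and missed the threshold (limma, adjusted p = 0.0786). With promoter medians set equal it passed (limma, adjusted p = 0.0429), as it did among regions with a mean value of at least 50 (0.045). Over the alternatives that kept all libraries its adjusted p ran from 0.0155 to 0.219 (limma). The lowest came from the crossed pairing, which was chosen after seeing the data. Across all alternatives its log2 fold change ran from 0.53 to 1.06. Hist1h2ad stood at 0.78 with SE 0.36 (limma, adjusted p = 0.215), at 0.21 without wild type replicate 1 and at 1.34 without the other wild type library. Hist1h1c stood at 0.89 with SE 0.50 (limma, adjusted p = 0.314), but leaving out wild type replicate 1 gave 0.05, and leaving out replicate 2 gave 1.72. The next were the second Hist1h4d region (0.33) and Hist1h2bb (0.32), with adjusted p of 0.545 and 0.429 (limma), and both were just below 0 with distal medians set equal. Without wild type replicate 1 they stood at 0.06 and 0.13, and without the other wild type library at 0.61 and 0.50. Leaving out an mdx library gave 0.14 and 0.53 for the second Hist1h4d region.

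The largest negative fold changes were at Hist2h2ab (-0.85), Hist1h2ab (-0.57), Hist1h4a (-0.52), Hist1h3i (-0.46) and Hist1h1a (-0.44). Hist1h4a was 1.43-fold lower in mdx (234.0 ± 7.1 against 336.0 ± 25.5, SD, n = 2), with SE 0.19 on the log2 scale, and missed the threshold (limma, adjusted p = 0.131). With distal medians set equal its log2 fold change was -0.85 and it passed (limma, adjusted p = 0.0211), and over the alternatives that p lay between 0.0211 and 0.67. For the other 4 the SE was 0.47, 0.67, 0.37 and 0.28 and the adjusted p 0.299, 0.652, 0.494 and 0.389 (limma), in the order given above. The faint Hist1h2ab depended on each library, at -0.12 without mdx replicate 1, -0.07 without wild type replicate 2, and -1.01 and -1.07 without mdx replicate 2 and wild type replicate 1. Among the named regions with smaller differences, Hist1h2bp was at -0.20 with SE 0.18 and Hist1h1e at -0.05 with SE 0.24 (limma, adjusted p = 0.529 and 0.922). Hist1h2ah (-0.14), Hist2h2be (-0.06) and Hist1h3a (-0.04) lay closer to 0 than their SE of 0.25, 0.31 and 0.34 (limma, adjusted p = 0.778, 0.933 and 0.958), and these and Hist1h1e turned above 0 with promoter medians set equal.

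**Figure D4:**
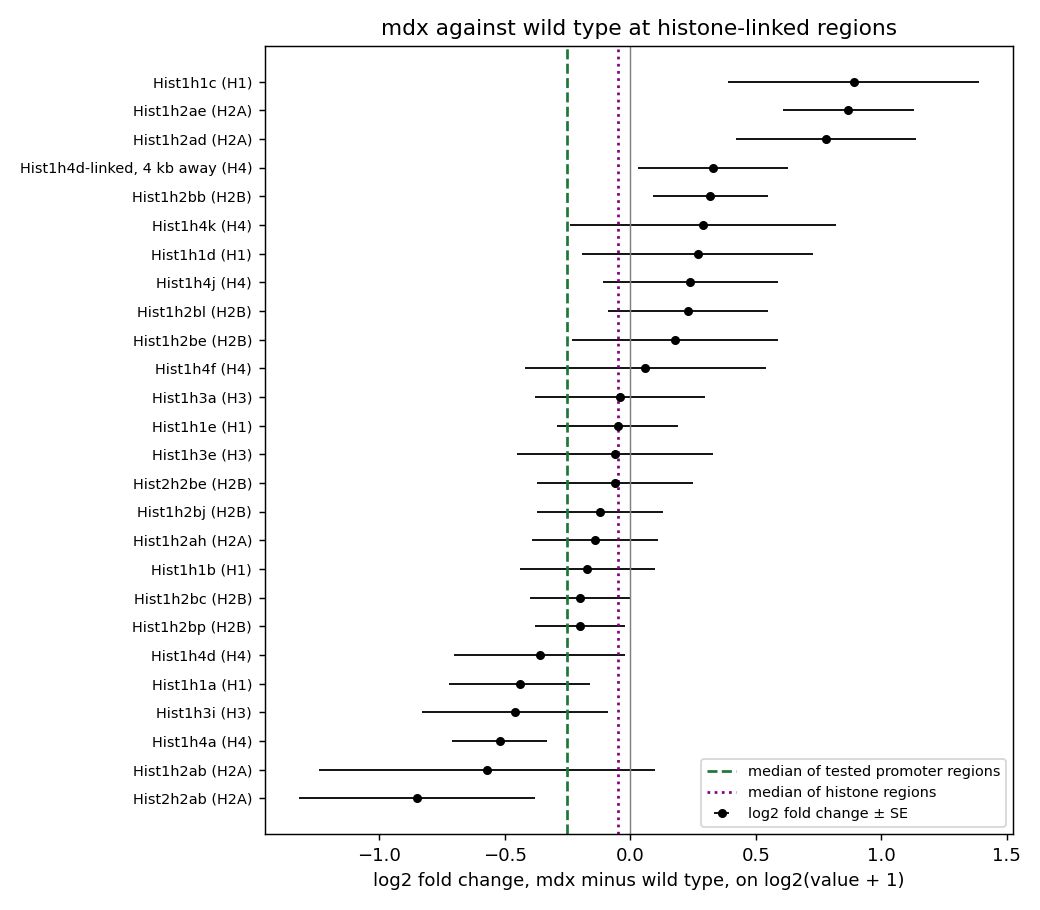
Log2 fold change of mdx relative to wild type (horizontal axis), with bars of 1 SE, for each of the 26 histone regions (vertical axis). Hist1h1c (0.89), Hist1h2ae (0.87) and Hist1h2ad (0.78) lie farthest to the right, and the dashed and dotted lines mark the medians of promoter regions (-0.25) and of histone regions (-0.05).

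The 26 regions lie in 3 blocks of Hist1 and 1 of Hist2. The largest block of Hist1 holds 29 histone genes and 16 of the 26 regions, with a median log2 fold change of 0.01 and values from -0.57 to 0.89. In it, Hist1h2ae and Hist1h2ad stood above 0, the next region, Hist1h4d, stood at -0.36 with SE 0.34, and the one after it at 0.33 with SE 0.30, both with overlapping groups. At the far end of the block, Hist1h4a and Hist1h1a were below 0, while Hist1h3a between them was at -0.04. The first block held 6 regions with a median of 0.03, and the middle block 2 with -0.14 and -0.12. By type of the linked gene the medians were -0.05 for H1, -0.14 for H2A, -0.06 for H2B, -0.06 for H3 and 0.15 for H4, over 3 to 7 regions each. The H4 set includes the second Hist1h4d region (0.33), which holds a start of an H2B gene. The H2B set includes the region linked to Hist1h2be, which overlaps the gene body of Hist1h1e.

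**Figure D5:**
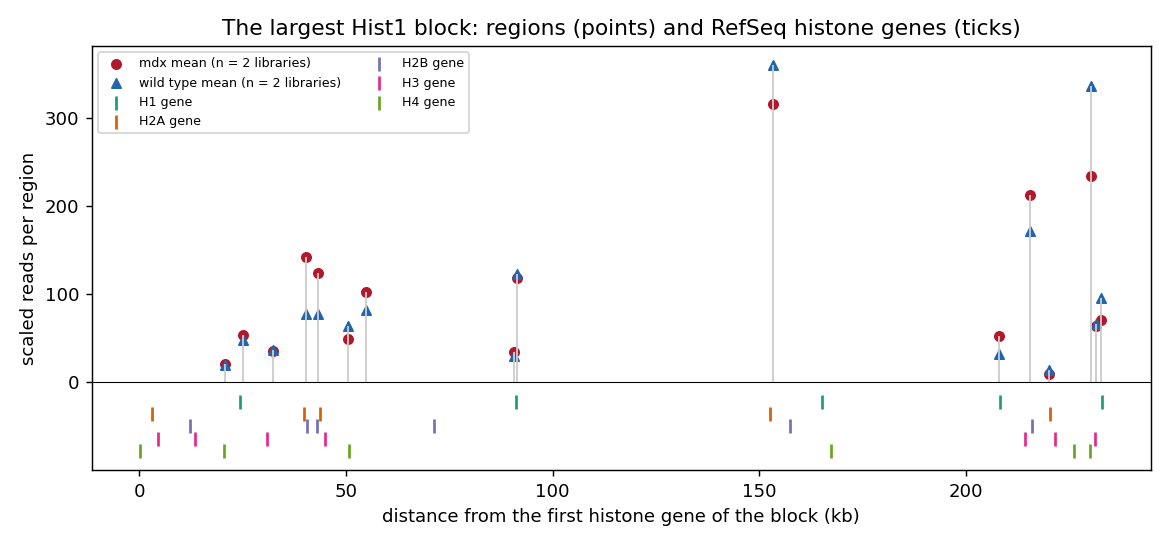
Mean scaled reads in mdx (circles) and wild type (triangles), vertical axis, by distance in kb from the first histone gene of the largest Hist1 block (horizontal axis), for its 16 histone-linked regions, with RefSeq histone genes as ticks below 0, coloured by type. The mdx mean is above the wild type mean at Hist1h2ae (141.5 against 77.5) and below it at Hist1h4a (234.0 against 336.0).

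Another 3 regions hold a histone start but carry another name or none. The start of Hist3h2a lies in a region linked to Trim17, with 141 and 113 scaled reads in mdx, against 109 and 114 in wild type (limma, adjusted p = 0.717, at a log2 fold change of 0.18). A region without a gene name at Hist1h2bm held 247 and 239 in mdx and 211 and 216 in wild type, higher in mdx with no overlap but a log2 fold change of 0.19 (limma, adjusted p = 0.616). The region at Hist1h2bh held 70 and 139 in mdx and 84 and 118 in wild type, and its groups overlapped.

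Promoters of the genes that make and process histone messages lay lower in mdx by the median, like promoters as a class, and none passed with the deposited scaling. Of 29 genes on this list (30 names, as Ars2 is an older name of Srrt), 26 had a tested promoter, with 0 higher and 0 lower and a median log2 fold change of -0.36, against -0.25 for all tested promoters. The median was -0.16 with promoter medians set equal, where 0 passed, and -0.70 with distal medians set equal, where all 26 were below 0 and 8 passed. Setting distal medians equal moved the median of all tested promoters to -0.58, and it called 3465 of 33161 tested regions lower. Casp8ap2, which encodes the FLASH protein of the histone locus body, held 469 and 605 scaled reads in mdx, against 950 and 762 in wild type. Its groups did not overlap, and at -0.67 ± 0.18 (SE) on the log2 scale it narrowly missed the threshold (limma, adjusted p = 0.0523). It passed in 7 alternatives, among them scaling by totals (limma, adjusted p = 0.0315) and the replicate block (0.0229). The 7 include the crossed pairing chosen after seeing the data (limma, adjusted p = 0.000179). With all libraries kept, its adjusted p was at most 0.0928 (limma, with cyclic loess). Leaving out 1 library gave log2 fold changes of -0.86 to -0.49. Slbp, the stem-loop binding protein, held 281 and 342 in mdx and 420 and 407 in wild type (limma, adjusted p = 0.2, at a log2 fold change of -0.41). Npat held 820 and 897 in mdx, and 1117 and 749 in wild type, on either side of the mdx values (-0.09, limma, adjusted p = 0.804), and its sign turned with cyclic loess, with promoter medians set equal and without wild type replicate 1.

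Histone chaperones, which carry histones to DNA, had 22 of 25 genes (26 names, as Supt16h is another name of Supt16) with a tested promoter, 0 of them passed, and their median was -0.27. It was -0.07 with promoter medians set equal, with 0 passed, and -0.61 with distal medians set equal, with all 22 below 0 and 6 passed. The latter scaling put the median of all tested promoters at -0.58 and called 3465 of 33161 tested regions lower and 1222 higher. The list of replication-independent variants had 9 of 12 tested, 0 passed and a median of -0.34. The same 2 scalings gave -0.14 with 0 passed and -0.68 with 3 passed. Over all 33161 tested regions they called 1821 higher and 159 lower, and 1222 higher and 3465 lower. H2afz, which encodes H2A.Z, held 500 and 689 in mdx and 950 and 852 in wild type. At -0.62 ± 0.18 (SE) on the log2 scale it missed the threshold (limma, adjusted p = 0.0664), and it passed in 6 alternatives, the replicate block among them (0.0397). The 6 include the crossed pairing chosen after seeing the data (limma, adjusted p = 0.000499). H3f3a was at -0.40, H1f0 at -0.33 and H2afx, the variant phosphorylated at DNA breaks, at -0.10 (limma, adjusted p = 0.263, 0.693 and 0.857), with H2afx at 0.10 when promoter medians were set equal. H3f3b has no linked promoter region in the table.

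Of 19 S phase genes, 15 had a tested promoter, and 1 fell and 0 rose, against 1.73% of tested promoter regions lower and 0.691% higher, with a median of -0.25. With promoter medians set equal the median was -0.05 and 1 passed, and with distal medians set equal it was -0.59, with all 15 below 0 and 5 passed. The median of all tested promoters was -0.05 and -0.58 under these 2 scalings. Over all 33161 tested regions the first called 1821 higher and 159 lower, and the second 1222 higher and 3465 lower. The one that fell was Ccne1, encoding the cyclin E1 that activates CDK2 at the start of S phase. It held 250 and 299 scaled reads in mdx, against 589 and 421 in wild type, and the groups did not overlap. It was 1.82-fold lower in mdx, at -0.86 ± 0.21 (SE) on the log2 scale (limma, adjusted p = 0.0378). With no filter on low values the call ended (limma, adjusted p = 0.0725) at the same fold change. Leaving out 1 library gave -1.10 to -0.62, in fits that call no region of the whole table. Its relative Ccne2 held 213 and 228 in mdx and 331 and 366 in wild type, and missed the threshold (limma, adjusted p = 0.0709, at a log2 fold change of -0.66).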

How the data were processed

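ATAC-seq was measured in 2 mdx and 2 wild type libraries, grouped by their labels. The submitters' processing notes list mm10 and, without roles, DESeq, DESeq2, MACS2 2.1.0, Picard 2.9.0, STAR 2.5.3a and Trimmomatic 0.33. How duplicates, reads with several matches and the Tn5 offset were handled is not given in the sources used. As deposited, the values form a score: in 3 libraries the whole numbers that factors of 1.382, 1.162 and 1.222 would skip are absent, so the authors scaled reads and rounded them. The fourth factor, of wild type replicate 2, is 0.492. It skips no whole number, so the same check could not be made for it. The pattern it predicts explained 0.308 of the variance in how often values occur, against 0.919, 0.699 and 0.818 for the other 3. Its recovered reads are therefore less certain. Because these are no counts, the planned fallback was used, limma 3.58.1 (R 4.3.3) with a trended prior variance on log2(value + 1). It ran on the 33161 regions with at least 10 in at least 2 libraries, with group as the only term. A run on simulated data held changes of at least 2-fold, larger than any among the histone regions, so it does not cover those. A promoter region reaches within 1000 bp of the linked start, and other regions are distal. Coordinates are as deposited, and whether they count from 0 or 1 is unstated. Histone genes were matched to RefSeq GRCm38.p6 by position. Members, lists and tests were chosen with earlier results of these data known. Fold changes are named for regions that passed, the 5 highest and 5 lowest, and those with the highest or lowest mean value of a cluster or the highest of a type. Named list genes are those that passed and 8 given in advance (Slbp, Npat, Casp8ap2, H2afz, H2afx, H3f3a, H3f3b and H1f0). A few others (Hist1h4d, Hist1h2bj, Ccne2 and the regions at Hist3h2a and Hist1h2bm) are named for their place or relation, after their values were seen. Alternatives covered scaling, cyclic loess, filters, pseudocounts, voom, the replicate block, membership and leaving out each library.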

Additional observations from a re-analysis of the deposited data

How the results depend on the processing

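The count of histone regions that passed moved from 0 higher and 0 lower to 1 higher (Hist1h2ae) with promoter medians set equal or with a mean value of at least 50 (18 histone regions left), and to 1 lower (Hist1h4a) with distal medians set equal, where the median log2 fold change was -0.39. Adding the replicate block left 0 higher and 0 lower, with a median of -0.05, and over all regions it moved the calls from 1095 to 2108 higher and from 292 to 653 lower. Same-numbered libraries deviated weakly in opposite directions (correlation -0.109), so the crossed pairing was added after seeing the data. It gave 2 higher and 1 lower among the histone regions. Over all 33161 tested regions it called 3394 higher and 2067 lower, against 1095 and 292 without a block. The other alternatives left the histone counts at 0. Among the 15 named regions, signs turned with promoter medians set equal for Hist1h2ah (0.06), Hist2h2be (0.14), Hist1h1e (0.14) and Hist1h3a (0.16), and with distal medians set equal for Hist1h2bb (-0.02) and the second Hist1h4d region (-0.0036). Fits without 1 library assume that the lone library varies like the other group, and they called 0 regions in the whole table. In them the histone median ran from -0.12 to 0.01, Hist2h2be from -0.16 to 0.04, Hist1h3a from -0.32 to 0.23, H2afx from -0.32 to 0.13 and Npat from -0.38 to 0.20. Hist2h2be was above 0 without mdx replicate 1 or wild type replicate 1 (0.01), and Hist1h3a without mdx replicate 2 (0.22) or wild type replicate 1. Npat also turned with cyclic loess (0.21) and, like H2afx (0.10), with promoter medians set equal (0.11). The cause was not tested. The precision is limited by 2 libraries a group and by a median of 56 to 175 reads per histone region.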

Other observations

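Between the histone blocks of chromosome 13 lies a stretch rich in tRNA genes, which RNA polymerase III transcribes. It was looked at after its values were seen. Of 23 listed regions there, 14 overlap a RefSeq tRNA gene, all 14 were tested, and 1 rose. Their median log2 fold change was 0.56, with both mdx libraries higher in 7 and lower in 2, while the 8 tested regions over no tRNA gene had a median of -0.08. Over all tested distal regions the median was 0.19, with both mdx libraries higher in 35.3% and lower in 16.8%, and over all tested regions 26.8% and 25.9%. At an adjusted p under 0.05 (limma), 1017 of 21869 tested distal regions were higher and 97 lower. Over all tested regions the shares called were 3.3% higher and 0.881% lower. Over the whole genome, 81 tested regions overlap a tRNA gene, with a median of 0.14, below that of distal regions, 1 higher and 1 lower, and groups apart in 27 upward and 12 downward.

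The region that rose, at chr13:22020894-22021221 over the tRNA gene n-TRacg1, held 131 and 77 scaled reads in the mdx libraries, against 21 and 42 in wild type. It was 3.30-fold higher in mdx (limma, adjusted p = 0.0365). Leaving out 1 library gave log2 fold changes of 1.24 to 2.21 in place of 1.72, in fits that call no region of the whole table, and the call ended with no filter on low values (limma, adjusted p = 0.0758). Regions over n-TVaac3 (32 and 29 in mdx, 5 and 16 in wild type) and n-TMcat8 (160 and 142 in mdx, 89 and 93 in wild type) were also higher in both mdx libraries and missed the threshold (limma, adjusted p = 0.128 and 0.112).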
